A study of Rattus norvegicus with 8 samples.

Results

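Matrix metalloproteinases (MMP), ADAM and ADAMTS proteases, ADAMTS-like proteins (ADAMTSL) and tissue inhibitors of metalloproteinases (TIMP) form one system that cuts, sheds and protects the proteins outside cells. The genes described here are all those of the array annotation with a single symbol that reads Mmp, Adam, Adamts, Adamtsl or Timp followed by a number. There were 57 of them among 14506 genes, namely 21 Mmp, 18 Adam, 11 Adamts, 3 Adamtsl and 4 Timp genes. By their mean over all 8 arrays, 32 of the 57 (56.1%) exceeded the median of all values, a log2 value of 7.01, against 58.6% of all genes.

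The genes above that median were Timp1, Timp2, Timp3 and Timp4, 8 Mmp genes (Mmp2, Mmp11, Mmp14, Mmp15, Mmp16, Mmp17, Mmp23 and Mmp28), 10 Adamts genes (Adamts1, Adamts2, Adamts3, Adamts4, Adamts5, Adamts7, Adamts9, Adamts12, Adamts14 and Adamts15), all 3 Adamtsl genes (Adamtsl3, Adamtsl4 and Adamtsl5) and 7 Adam genes (Adam1a, Adam4, Adam4l1, Adam9, Adam11, Adam15 and Adam17). The 25 below it were 13 Mmp genes, 11 Adam genes and Adamts19. Adamts4, at a mean log2 level of 7.12, lay just inside the limit and Mmp24, at 6.97, just outside it. Of the 57, 31 were above the limit in all 4 groups, 22 in none and 4 in some groups. Of 82 protein-coding RefSeq genes with such symbols, 25 are not analysed here, among them Adam10, Adam12, Adamts8, Adamtsl2 and Mmp25.

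Expression was measured on Affymetrix Rat Gene 1.0 ST arrays in neonatal rats 1 h after birth. The ductus arteriosus (DA), the shunt of the fetal circulation between the pulmonary artery and the aorta, which normally shuts in the newborn, was compared with the aorta in 2 inbred strains, Brown-Norway (BN) and Fischer344 (F344). BN rats are known for a ductus that is slow to close. Each of the 4 groups, F344 DA, F344 aorta, BN DA and BN aorta, had 2 arrays, all from full-term, day of birth neonates with no treatment in the labels, and the RNA of each came from pooled tissues. The labels do not say that the arrays of a group came from separate animals or litters, or how many animals a pool held, so the p-values below measure only the spread between these samples.

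MMPs are zinc enzymes that cut collagens, elastin and other matrix proteins, and several sit in the cell membrane. ADAMs mostly shed the outer parts of membrane proteins, and ADAMTS enzymes are secreted proteases that cut proteoglycans such as versican and aggrecan or trim procollagens. TIMPs bind and block the active enzymes, and in the closing ductus the vessel wall is known to be rebuilt by matrix deposition and smooth muscle migration into the inner layer.

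Levels are log2 values of the deposited RMA data, and a difference of 1 between groups is a doubling. Differences were tested with limma over all 14506 genes, and a gene is called when its Benjamini-Hochberg adjusted p is below 0.05. Counts at an unadjusted limma p under 0.05 are given without the share of all genes. They are not read as results about the families. The order in which arrays are given is replicate 1, then replicate 2. Levels of different genes come from different probes and are not compared with each other. The array medians lay between 6.96 and 7.05. The smooth muscle markers, 7 of 7 of which were above the median of all values, had a mean level of 11.87 and 11.74 in F344 DA, 11.79 and 11.67 in BN DA, 11.58 and 11.53 in F344 aorta, and 11.62 and 11.44 in BN aorta. Every DA array was thus above every aorta array, and in the average over strains 2 of the 7 rose and 0 fell (28.6% and 0%, against 10.1% and 6.47% of all genes). In all 4 groups replicate 1 had the higher erythroid markers, with mean levels of 8.64 and 7.71 (F344 DA), 8.11 and 7.44 (F344 aorta), 9.08 and 7.85 (BN DA) and 8.54 and 7.83 (BN aorta). BN DA replicate 1 stood apart in the thymocyte and lymphocyte markers, with a mean level of 7.25 against 5.84 to 5.96 on the other arrays, and replicates differed most in BN DA. There, 10 of the 57 genes (17.5%) differed between replicates by more than 0.5 on the log2 scale, against 13.1% of all genes, while the other groups had 1 (F344 DA), 0 (F344 aorta) and 2 (BN aorta) such genes.

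**Figure D1:**
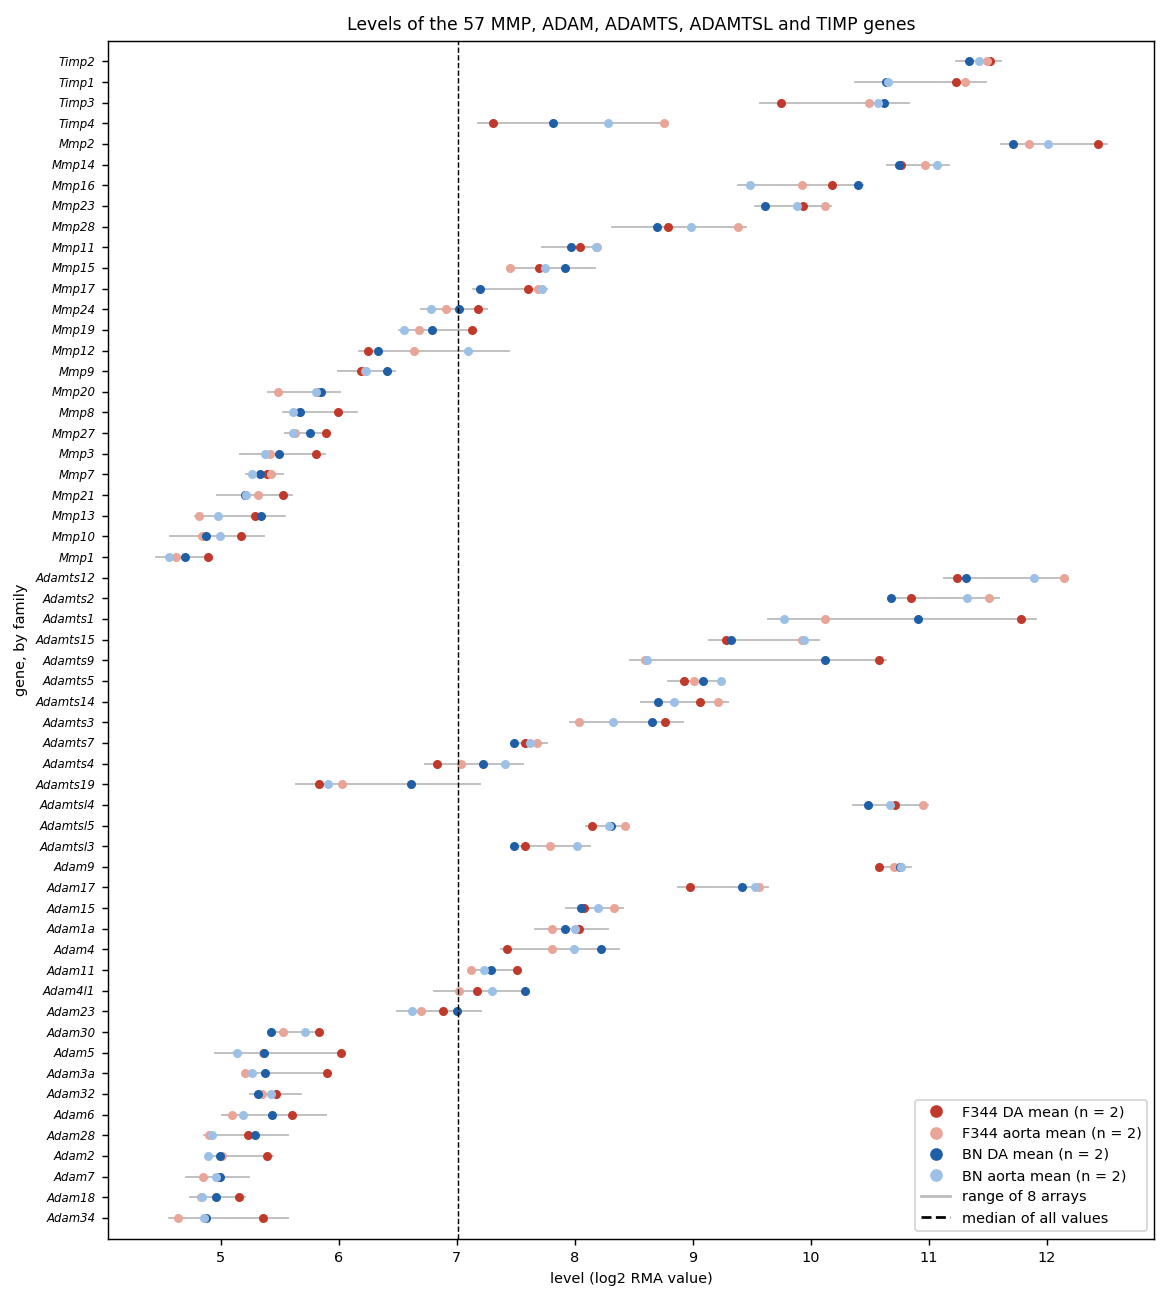
Mean log2 RMA level of each of the 57 genes in the 4 groups (coloured points, n = 2 arrays each), with a grey line from the lowest to the highest of the 8 arrays and a dashed line at the median of all values, 7.01. The 4 Timp genes and 10 of 11 Adamts genes lie to the right of the dashed line, and 13 of 21 Mmp genes lie to the left; the order within a family is for display.

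In F344 rats, 7 of the 57 genes were higher in the DA than in the aorta (12.3%, against 8.87% of all genes) and 6 were lower (10.5%, against 5.12%). Because the DA of this strain showed higher values for dim genes in general, the counts are also given by level. Above the median, 4 of 32 genes were higher and 6 lower, against 2.13% and 7.89% of all genes of that level. Below it, 3 of 25 were higher and 0 lower, against 18.4% and 1.18%. The median difference of the 57 was 0.13 on the log2 scale, against -0.04 over all genes. The genes that rose were Adamts1, Adamts9, Adamts3 and Mmp2 together with the dim Adam3a, Adam5 and Adam34, and those that fell were Timp4, Timp3, Adamts12, Adamts2, Adamts15 and Adam17.

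In BN rats, 3 genes were higher in the DA, namely Adamts1, Adamts9 and Mmp16 (5.26%, against 0.986% of all genes), and 0 were lower (against 0.82%), while 13 of the 57 had an unadjusted limma p under 0.05. Averaged over both strains, 7 genes were higher and 7 lower in the DA (12.3% each, against 10.1% and 6.47% of all genes). Above the median these were 4 higher and 6 lower of 32, against 3.14% and 9.85% of all genes of that level, and below it 3 and 1 of 25, against 20% and 1.68%. The 7 that were lower were Timp4, Adamts12, Adamts2, Adamts15, Adam17, Adamtsl3 and Mmp12. The 7 that were higher were Adamts9, Adamts1, Mmp16, Adamts3, Mmp19, Adam5 and Adam3a.

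Adamts1 and Adamts9 encode secreted versican-cutting proteases and had the 2 largest differences between the vessels among the 57 genes in each strain, and Adamts2 and Adamts12 are 2 of the family that fell in the F344 DA. Their promoters, from RefSeq (GRCr8), are shown for reference and do not stand for all genes that rose or fell. Each line runs 5′ to 3′ on the gene's strand and ends before the outermost annotated start, and capitals mark matches to the motifs searched.
Adamts1: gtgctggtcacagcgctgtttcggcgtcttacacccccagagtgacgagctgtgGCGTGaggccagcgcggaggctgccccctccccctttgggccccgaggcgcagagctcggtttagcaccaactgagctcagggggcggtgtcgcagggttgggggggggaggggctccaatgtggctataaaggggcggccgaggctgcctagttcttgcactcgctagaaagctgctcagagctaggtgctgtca
Adamts9: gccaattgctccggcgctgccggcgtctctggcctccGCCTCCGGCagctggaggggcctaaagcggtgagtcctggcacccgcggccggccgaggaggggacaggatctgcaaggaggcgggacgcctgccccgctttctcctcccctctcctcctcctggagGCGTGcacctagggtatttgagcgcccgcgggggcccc
Adamts2: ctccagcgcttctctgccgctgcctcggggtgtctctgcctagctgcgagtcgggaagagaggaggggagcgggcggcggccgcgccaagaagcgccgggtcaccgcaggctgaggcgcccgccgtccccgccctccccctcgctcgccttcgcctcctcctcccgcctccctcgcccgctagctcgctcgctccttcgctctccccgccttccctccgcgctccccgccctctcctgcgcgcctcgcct
Adamts12: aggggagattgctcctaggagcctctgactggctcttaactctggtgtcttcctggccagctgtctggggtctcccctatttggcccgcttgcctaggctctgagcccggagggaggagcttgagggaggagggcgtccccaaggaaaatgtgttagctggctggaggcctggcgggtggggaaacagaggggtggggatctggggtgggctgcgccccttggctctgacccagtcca

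These windows are chr11:38427385-38427634 on the minus strand for Adamts1, chr4:127019925-127020126 on the minus strand for Adamts9, chr10:35421780-35422029 on the plus strand for Adamts2 and chr2:61759737-61759974 on the plus strand for Adamts12. The motifs searched, on both strands, were GCCNNNGGC (AP-2), TGANTCA (AP-1), TGACGTCA (CRE) and ACGTG or GCGTG (the core of hypoxia response elements). The Adamts1 promoter held a single match, GCGTG 196 bases before the start of the gene. The Adamts9 promoter held an AP-2 match 213 bases and GCGTG 86 bases before the start, and the windows of Adamts2 and Adamts12 held no match. Positions count from the start that defined the promoters of 250 bases. The printed Adamts9 line ends 49 bases, and the Adamts12 line 13 bases, before that start, since an outer start is annotated. Of 27457 RefSeq promoters of 250 bases, 37.9% held ACGTG or GCGTG, 13% the AP-2, 6.36% the AP-1 and 1.7% the CRE motif. Of the 37 genes of the 57 with a promoter in the table, 17, 7, 7 and 0 did. The 7 with the AP-1 motif were Mmp1, Mmp3, Mmp7, Mmp10, Mmp12, Mmp13 and Mmp20, which lie in the same run of neighbouring Mmp genes. Among genes called in the average over strains, 3 of 3 higher genes with a promoter in the table held ACGTG or GCGTG and 2 held the AP-2 motif. Of 6 lower genes with a promoter, 2 (Adam17 and Mmp12) held ACGTG or GCGTG, 1 (Mmp12) the AP-1 motif and 0 the AP-2 motif. These are letter matches only.

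Adamts9 gave log2 levels of 10.64 and 10.52 (F344 DA), 8.71 and 8.47 (F344 aorta), 10.50 and 9.73 (BN DA) and 8.51 and 8.71 (BN aorta). All 4 DA arrays were above all 4 aorta arrays. The difference was 1.99 ± 0.22 (SE) in F344, a 3.97-fold higher level (limma adjusted p = 0.00118), and 1.5 ± 0.22 in BN, 2.84-fold (adjusted p = 0.0154). The BN DA arrays differed from each other by 0.77, more than the replicates of any other group did for this gene.

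Adamts1 gave log2 levels of 11.91 and 11.66 (F344 DA), 10.18 and 10.07 (F344 aorta), 11.16 and 10.66 (BN DA) and 9.91 and 9.63 (BN aorta). Again every DA array lay above every aorta array, and the F344 DA arrays were the highest of all. The DA level was 3.15-fold higher in F344 (log2 difference 1.66 ± 0.18, limma adjusted p = 0.00115) and 2.21-fold higher in BN (1.14 ± 0.18, adjusted p = 0.0206). Without BN aorta replicate 1 or 2 the BN call was lost for Adamts1 (adjusted p = 0.109 and 0.105) and for Adamts9 (0.156 and 0.0598), whereas in F344 both stayed called under each of the 18 alternatives. With only the 4 BN arrays compared, the BN calls of Adamts1 (limma adjusted p = 0.123) and Adamts9 (0.104) were lost as well. The mean level of the smooth muscle markers was also higher on every DA array than on every aorta array, as given above. The part of these markers in the Adamts1 and Adamts9 differences was not tested.

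Of the other proteoglycan-cutting members, Adamts15 fell and Adamts4 and Adamts5 were not called. Adamts15 had log2 levels of 9.34 and 9.22 (F344 DA), 9.83 and 10.03 (F344 aorta), 9.52 and 9.14 (BN DA) and 10.07 and 9.82 (BN aorta), with the DA arrays below the aorta arrays in each strain. It fell by 0.65 ± 0.16 in F344 (limma adjusted p = 0.0291), and averaged over both strains the difference was -0.63 ± 0.12 (adjusted p = 0.00605). Adamts5, the neighbour of Adamts1 in the RefSeq assembly, differed by -0.09 ± 0.13 in F344 and -0.15 ± 0.13 in BN, and Adamts4 by -0.20 ± 0.19 and -0.19 ± 0.19, none of them called. A test of one gene's difference against another's was not made.

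Of the 3 procollagen N-proteinases, which trim the amino end of fibrillar procollagens, one rose and one fell. Adamts2, the main procollagen I enzyme, had log2 levels of 10.94 and 10.76 (F344 DA), 11.43 and 11.60 (F344 aorta), 10.67 and 10.68 (BN DA) and 11.50 and 11.15 (BN aorta). Every DA array was below every aorta array, and the gene fell by 0.67 ± 0.15 in F344 (limma adjusted p = 0.0178). In BN its difference was -0.64 ± 0.15, which did not pass (adjusted p = 0.0704), and averaged over strains it was -0.66 ± 0.11 (adjusted p = 0.00334).

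Adamts3, which also activates the lymphatic growth factor VEGF-C, had log2 levels of 8.92 and 8.60 (F344 DA), 7.96 and 8.11 (F344 aorta), 8.87 and 8.45 (BN DA) and 8.32 and 8.33 (BN aorta). The DA arrays were above the aorta arrays in both strains. It rose by 0.73 ± 0.17 in F344 (limma adjusted p = 0.0217), while in BN the difference was 0.33 ± 0.17 (adjusted p = 0.449). Adamts14 was not called in any comparison.

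Adamts12, known to cut cartilage oligomeric matrix protein, had log2 levels of 11.28 and 11.19 (F344 DA), 12.18 and 12.12 (F344 aorta), 11.50 and 11.13 (BN DA) and 12 and 11.80 (BN aorta). The tissues did not overlap in either strain. The gene fell by 0.91 ± 0.15 in F344 (limma adjusted p = 0.00494, but 0.0529 without F344 DA replicate 2), and its BN difference of -0.58 ± 0.15 did not pass (adjusted p = 0.101). Adamtsl3, which has no protease domain, had levels of 7.61 and 7.55 (F344 DA), 7.89 and 7.69 (F344 aorta), 7.46 and 7.51 (BN DA) and 8.13 and 7.91 (BN aorta). It fell by 0.37 ± 0.09 averaged over the strains (limma adjusted p = 0.0251).

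**Figure D2:**
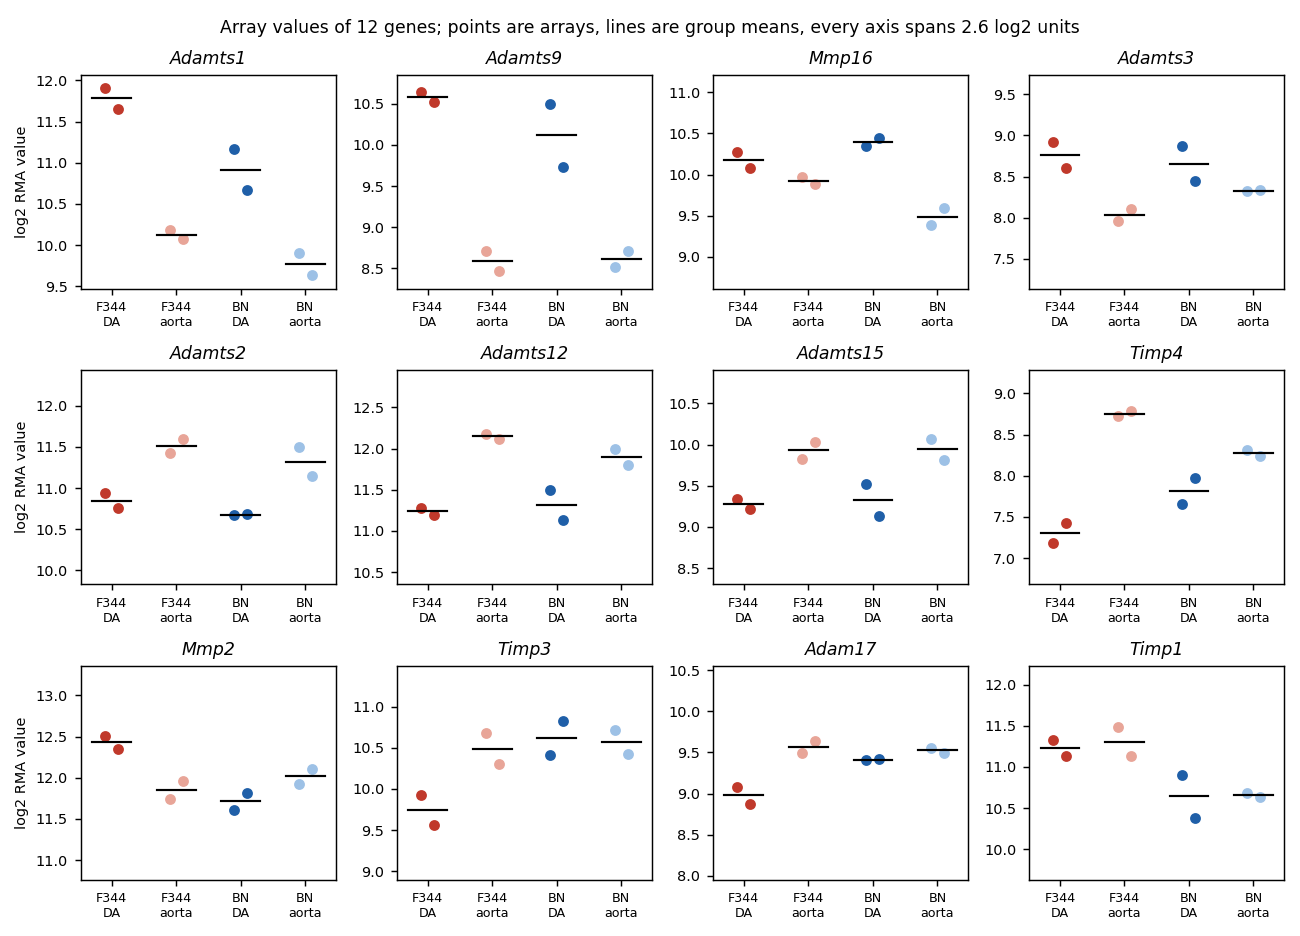
Log2 RMA values of 12 of the 57 genes on each array (points, replicate 1 left and replicate 2 right) with the group mean (line, n = 2), by strain and tissue; every vertical axis spans 2.6 log2 units. The DA points of Adamts1 and Adamts9 lie above the aorta points in both strains, those of Adamts2, Adamts12, Adamts15 and Timp4 lie below them, and Mmp2 is highest in F344 DA.

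Among the inhibitors, Timp4 and Timp3 fell in the F344 DA, and Timp1 and Timp2 did not differ between the tissues beyond their error. Timp4, an inhibitor known from heart and vessel, had log2 levels of 7.18 and 7.43 (F344 DA), 8.72 and 8.79 (F344 aorta), 7.66 and 7.97 (BN DA) and 8.32 and 8.24 (BN aorta). The DA arrays were the lower ones in both strains. The level was 2.73-fold lower in the F344 DA, a log2 difference of -1.45 ± 0.15 (limma adjusted p = 0.000841), and the BN difference was -0.46 ± 0.15 (adjusted p = 0.172).

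Timp3, which binds the matrix and also inhibits Adam17 and aggrecan-cutting ADAMTS enzymes, had log2 levels of 9.93 and 9.57 (F344 DA), 10.68 and 10.30 (F344 aorta), 10.41 and 10.83 (BN DA) and 10.71 and 10.42 (BN aorta). The F344 DA arrays were the lowest, and the BN groups overlapped. It fell by 0.74 ± 0.20 in F344 (limma adjusted p = 0.0403) and differed by 0.05 ± 0.20 in BN. The F344 call was lost under 11 of 18 alternatives. These were the omission of any one of the 4 F344 or 2 BN aorta arrays (adjusted p between 0.0508 and 0.269), repeated quantile normalization (0.0735), cyclic loess (0.0861), centring on brighter genes (0.116), and leaving out dim genes (0.0565) or chemosensory receptor genes (0.0534).

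Timp2, which inhibits MMPs and also helps Mmp14 to activate Mmp2, had log2 levels between 11.23 and 11.61 on all arrays, and its tissue differences were 0.03 ± 0.14 in F344 and -0.09 ± 0.14 in BN. Timp1 had log2 levels of 11.33 and 11.13 (F344 DA), 11.48 and 11.13 (F344 aorta), 10.90 and 10.38 (BN DA) and 10.69 and 10.63 (BN aorta). Its tissue differences were -0.08 ± 0.19 and -0.02 ± 0.19, and every BN array was below every F344 array.

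Mmp2, a gelatinase, had log2 levels of 12.51 and 12.35 (F344 DA), 11.75 and 11.96 (F344 aorta), 11.61 and 11.82 (BN DA) and 11.92 and 12.11 (BN aorta). In F344 the DA was higher and in BN the DA was lower, without overlap in either. The rise in F344 was 1.49-fold (0.58 ± 0.14, limma adjusted p = 0.0275), and the BN difference of -0.30 ± 0.14 was not called (adjusted p = 0.403). The F344 call was lost without any one of the 4 F344 arrays (adjusted p between 0.0689 and 0.21).

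Mmp16, a membrane-type MMP, had log2 levels of 10.28 and 10.08 (F344 DA), 9.97 and 9.88 (F344 aorta), 10.35 and 10.45 (BN DA) and 9.38 and 9.59 (BN aorta). The BN aorta arrays were the lowest. The BN DA was 1.88-fold above the BN aorta (0.91 ± 0.13, limma adjusted p = 0.0146, but 0.142 without BN aorta replicate 1), and the F344 difference was 0.25 ± 0.13 (adjusted p = 0.238). The BN call of Mmp16 was also lost with only the 4 BN arrays compared (limma adjusted p = 0.104). Mmp14, the membrane-type enzyme that activates Mmp2, differed by -0.21 ± 0.13 in F344 and -0.33 ± 0.13 in BN, neither called. Mmp9, the other gelatinase, was below the median on all arrays, with log2 levels between 5.99 and 6.48, and differed by -0.03 ± 0.16 and 0.17 ± 0.16.

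All 9 measured collagenase, stromelysin and related genes (Mmp1, Mmp3, Mmp7, Mmp8, Mmp10, Mmp12, Mmp13, Mmp20 and Mmp27) were below the median by their mean. They are neighbours in a run of 10 Mmp genes in the RefSeq assembly. Of these, Mmp12, the macrophage elastase, had log2 levels of 6.32 and 6.17 (F344 DA), 6.63 and 6.64 (F344 aorta), 6.33 and 6.33 (BN DA) and 7.44 and 6.74 (BN aorta). It was called only in the average over strains, where it fell by 0.58 ± 0.14 (limma adjusted p = 0.0229). Macrophage markers moved the same way: their mean level was 7.0 and 6.91 (F344 DA), 7.53 and 7.28 (F344 aorta), 7.12 and 7.54 (BN DA) and 7.68 and 7.71 (BN aorta). In the average over strains 3 of 9 of them fell and 0 rose (33.3% and 0%, against 6.47% and 10.1% of all genes), and their part in the Mmp12 difference was not tested. In bulk tissue, fewer cells of a type and less RNA per cell cannot be told apart. Mmp19 had log2 levels of 7.16 and 7.08 (F344 DA), 6.76 and 6.59 (F344 aorta), 6.93 and 6.65 (BN DA) and 6.60 and 6.51 (BN aorta), and it rose by 0.34 ± 0.10 averaged over strains (limma adjusted p = 0.0419).

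Of the ADAM genes, Adam17, the sheddase of tumour necrosis factor and of several epidermal growth factor receptor ligands, had log2 levels of 9.08 and 8.87 (F344 DA), 9.49 and 9.64 (F344 aorta), 9.40 and 9.42 (BN DA) and 9.56 and 9.49 (BN aorta). The F344 DA arrays were the lowest. It fell by 0.58 ± 0.13 in F344 (limma adjusted p = 0.0162), and the BN difference was -0.11 ± 0.13 (adjusted p = 0.799). Adam9 and Adam15 were not called in any comparison. Adam11 differed by 0.39 in F344, which did not pass (limma adjusted p = 0.0506). It was called there with repeated quantile normalization (limma adjusted p = 0.0358), cyclic loess (0.0291) and centring on brighter genes (0.0127).

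Most of the other ADAM genes are known mainly from testis and epididymis, and 9 of these 12 were below the median. Adam3a, Adam5 and Adam34 rose in the F344 DA by 0.69, 0.66 and 0.72 on the log2 scale (limma adjusted p = 0.0122, 0.0217 and 0.0187). Repeated quantile normalization gave 0.42, 0.40 and 0.44 and ended all 3 calls (adjusted p = 0.0549, 0.0767 and 0.0863), and cyclic loess ended those of Adam5 and Adam34 (0.0696 and 0.0757). Probe sets of such closely related genes can bind each other's transcripts, so values of single members, and those of Adam4 and Adam4l1, are uncertain. Dim genes in general moved the same way: the 25 dim members had a median F344 difference of 0.32, against 0.20 for all genes below the median and 0.79 for 1283 chemosensory receptor genes. The corresponding BN medians were 0.12, 0.06 and 0.39.

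**Figure D3:**
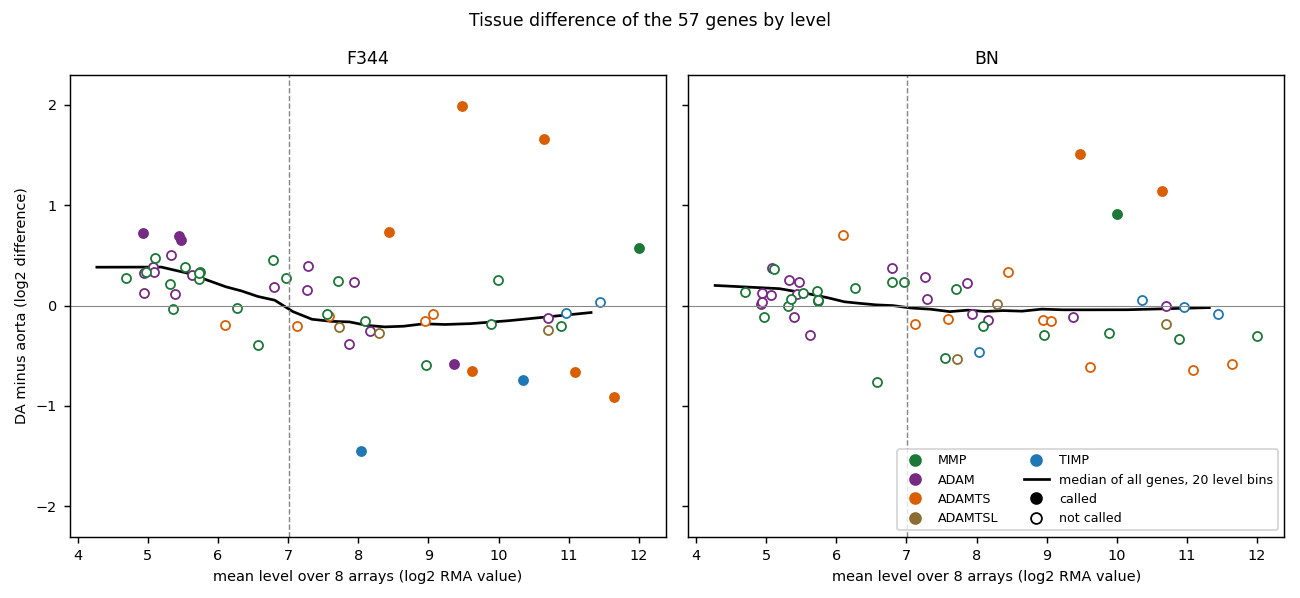
Difference of DA minus aorta (log2) of each of the 57 genes against its mean level over the 8 arrays (log2 RMA value), in F344 (left) and BN (right); filled points are called in that strain, the black line joins the medians of all genes in 20 bins of level, and the dashed line is the median of all values. In F344 the black line is above 0 for dim genes and below 0 for most brighter ones, and Adamts1, Adamts9 and Timp4 lie far from it.

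The scaling of the arrays moved the split between higher and lower genes. With the deposited values the median of all genes was -0.04 in the F344 comparison, and centring each array on its brighter genes moved it to 0.17, with 17 of the 57 genes then higher and 2 lower. Repeated quantile normalization gave 4 higher and 4 lower (median of all genes -0.05), and cyclic loess 6 and 3 (-0.01). The share of all genes called under each alternative is not given. Counts under alternatives, here and below, are therefore not read as results about the 57 genes alone. In the average over strains the 7 higher and 7 lower became 17 and 5 with centring (the median of all genes moved from -0.02 to 0.11), 4 and 6 with repeated quantile normalization, and 5 and 5 with cyclic loess. Of the 38 called results of single genes, 0 reversed direction under the alternatives run for each, which numbered 18 in the comparisons within 1 strain or tissue, 17 in the averages, and 1 fewer for genes that a filter on dim genes removed. The 10 called under all that were run were Adamts1, Adamts9 and Timp4 in F344 and Adamts1, Adamts9, Adamts2, Adamts12, Adamts15, Mmp16 and Timp4 averaged over strains. In F344, Mmp2, Adamts2, Adamts3, Adamts15, Adam3a and Adam5 each lost the call without any one of the 4 F344 arrays (adjusted p between 0.0529 and 0.21), and Adam17 and Adam34 without F344 DA replicate 2 or either F344 aorta array (0.0668 to 0.149). Other scalings ended the F344 calls of Mmp2 (repeated quantile normalization, 0.0776), Adamts2 (centring, 0.0571), Adam17 (cyclic loess, 0.0503, and centring, 0.0776) and Adamts15 (all 3 scalings, 0.0517 to 0.0727). In the average over strains they ended those of Adam17 (all 3 scalings, 0.052 to 0.144), Adamtsl3 (cyclic loess, 0.0631, and centring, 0.121), and, under both repeated quantile normalization and cyclic loess, Adam3a, Adam5 and Mmp19 (0.0739 to 0.17). In the average over strains, Adamts3 lost the call without replicate 1 of F344 DA, F344 aorta or BN aorta (0.0596 to 0.074), Mmp12 without any F344 array (0.0554 to 0.0924) and Mmp19 without any single array except BN DA replicate 2 (0.0714 to 0.16). Adam17 lost it without either aorta array of either strain or F344 DA replicate 2 (0.0544 to 0.125). Adamtsl3 and Adam5 lost it without either F344 DA array or replicate 1 of either aorta group (0.0643 to 0.117), and Adam3a without any F344 array or BN aorta replicate 1 (0.0687 to 0.0915).

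**Figure D4:**
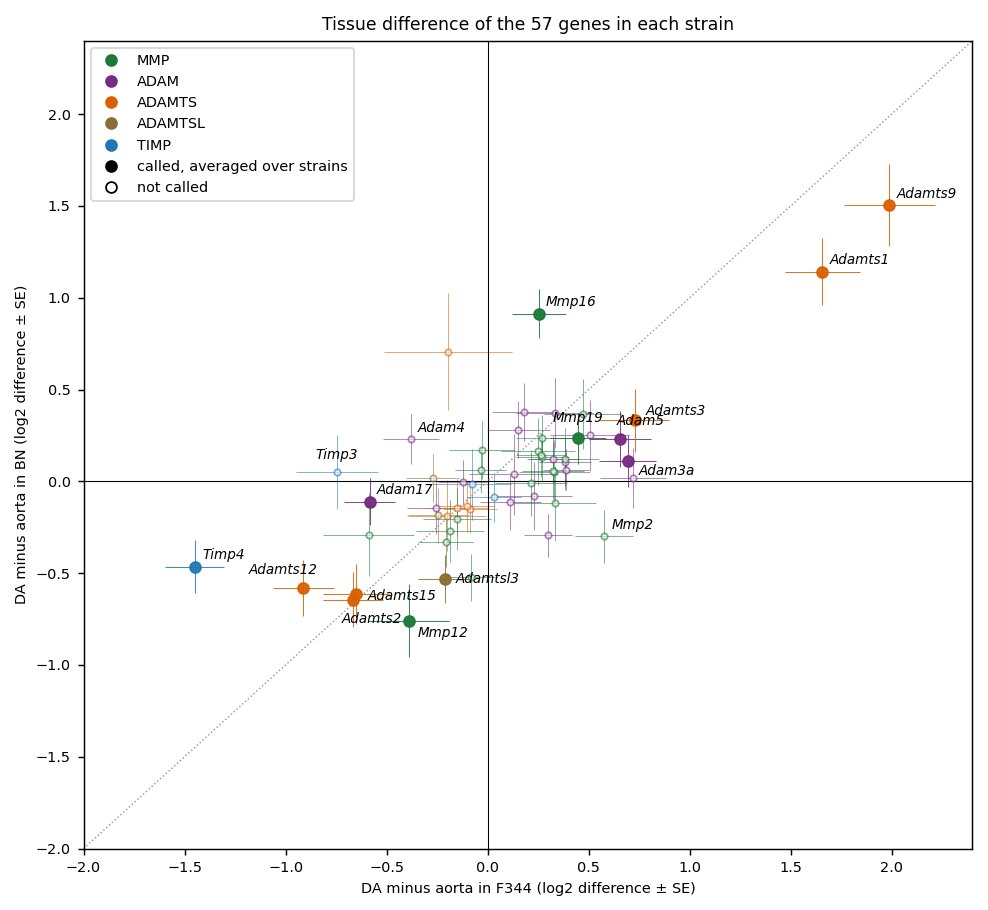
DA minus aorta difference in BN (vertical axis, log2 ± SE) against that in F344 (horizontal axis, log2 ± SE) for the 57 genes, coloured by family; filled points are called in the average over strains, and the dotted line marks equal differences. Adamts9 and Adamts1 lie far to the upper right, Timp4 and Adamts12 to the lower left, and Mmp2 has opposite signs in the strains.

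Between the strains, the DA differed in 5 of the 57 genes. In BN, 2 were higher (3.51%, against 2.43% of all genes) and 3 lower (5.26%, against 2.1%), and the median difference of the 57 was -0.10, against -0.0030 over all genes. Timp3 rose by 0.87 ± 0.20 on the log2 scale in the BN DA (limma adjusted p = 0.0464) and Adam4 by 0.80 ± 0.14 (adjusted p = 0.0199). Adamts1 fell by 0.87 ± 0.18 (adjusted p = 0.0336), Mmp2 by 0.72 ± 0.14, which is 1.64-fold (adjusted p = 0.0288), and Adam5 by 0.65 (adjusted p = 0.0479). All 5 lost the call without F344 DA replicate 1 and also without replicate 2 (adjusted p between 0.0997 and 0.284). All but Adam4 lost it without either F344 aorta array, Mmp2 and Adam5 without BN DA replicate 1, Adamts1 and Timp3 without BN DA replicate 2, and Timp3 without either BN aorta array (0.0535 to 0.0953). Other scalings ended the calls of Mmp2 (repeated quantile normalization, 0.0574), Adam5 (cyclic loess, 0.0603) and Timp3 (all 3 scalings, 0.0549 to 0.0861). Adam5 also lost it with a mean-variance trend (0.0536), and Adam5 and Timp3 lost it without chemosensory receptor genes (0.0517 and 0.05). With repeated quantile normalization and with cyclic loess the counts were 1 higher and 2 lower, and with centring, which moved the median of all genes from there to -0.14, 1 and 3. Adam4 had log2 levels of 7.37 and 7.48 (F344 DA), 7.79 and 7.82 (F344 aorta), 8.38 and 8.07 (BN DA) and 8.04 and 7.95 (BN aorta), with the F344 DA lowest and the BN DA highest.

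Markers of other cells differed between the DA of the strains as well. Of 5 lymphatic endothelial markers 4 rose in the BN DA (80%, against 2.43% of all genes), with a mean log2 level of 8.39 and 8.40 there against 7.05 and 7.17 in F344 DA. The endothelial markers had a mean level of 8.65 and 8.56 in F344 DA and between 8.96 and 9.24 elsewhere, and 4 of 8 of them fell in the F344 DA against the aorta (50%, against 5.12% of all genes). The adventitial fibroblast markers had a mean level of 9.26 and 9.12 in F344 DA and between 9.45 and 9.89 elsewhere, with 3 of 7 lower in the F344 DA than in the aorta (42.9%, against 5.12%). Of these, 8 of 8 endothelial and 6 of 7 adventitial fibroblast markers were above the median of all values. Among all genes above it, 7.89% were lower in the F344 DA. The part of the lymphatic endothelial, endothelial and adventitial fibroblast markers in the differences of Timp3, Timp4, Adam17 and Mmp2 was not tested.

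In the aorta, 0 of the 57 genes were called between the strains (against 0.159% of all genes), with limma's unadjusted p under 0.05 for 5 of them. Averaged over both tissues, Adam4 was higher in BN (0.49 ± 0.10, limma adjusted p = 0.0367), and Adamts1 (-0.61 ± 0.13, adjusted p = 0.0461) and Timp1 (-0.62 ± 0.14, adjusted p = 0.0495) were lower, 1 gene against 1.63% and 2 genes against 1.02% of all genes. All 3 lost the call without any one of the F344 arrays or the BN aorta arrays (adjusted p between 0.0856 and 0.159), and Adam4 also with centring on brighter genes (0.0626).

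The tissue difference was not shown to depend on the strain for any of the 57 genes. The interaction, the BN difference minus the F344 difference, was called for 0 of the 57 and 0% of all genes by limma, with 10 of the 57 at an unadjusted p under 0.05. The 5 with the smallest p were Timp4 (0.98 ± 0.21, limma adjusted p = 0.278), Mmp2 (-0.88 ± 0.20, adjusted p = 0.28), Adam30 (-0.59 ± 0.17, adjusted p = 0.348), Mmp16 (0.66 ± 0.19, adjusted p = 0.348) and Adam4 (0.61 ± 0.19, adjusted p = 0.391). The DA and aorta arrays were apart in both strains and in the same direction for 21 of the 57 genes, 12 higher and 9 lower, against 23.8% of all genes. They were apart in opposite directions for 3, Mmp2, Adam4 and Adam30, against 3.8%.

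Genes that act on or with these families were counted in the same fit. In the lists below, in order, 19 of 25, 19 of 26 and 17 of 20 genes were above the median of all values. Of all genes above it, 2.13% rose and 7.89% fell in the F344 DA. Of 25 measured activators and other inhibitors of metalloproteinases, 2 rose and 2 fell in the F344 DA (8% each, against 8.87% and 5.12% of all genes, median difference -0.09, all genes -0.04). Pcsk5, a proprotein convertase of the furin type, rose by 1.34 ± 0.21 (limma adjusted p = 0.0036) and Plat, the tissue plasminogen activator, by 0.56 ± 0.15 (adjusted p = 0.0362), while the cathepsin genes Ctsl and Ctss fell by 0.66 and 0.59. In BN 0 rose and 2 fell (0% and 8%, against 0.986% and 0.82% of all genes, median -0.07, all genes -0.0010), namely Ctss by 1.19 and Serpine2, an inhibitor of serine proteases, by 0.81. Ctss is also abundant in macrophages, whose markers are given above.

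Of 26 measured partners and shed substrates of ADAMs, 2 rose and 5 fell in the F344 DA (7.69% and 19.2%, against 8.87% and 5.12% of all genes, median -0.22). In BN 0 were called by limma (against 0.986% higher and 0.82% lower, median -0.21), with 9 at an unadjusted p under 0.05. Those that fell included Cx3cl1 (-0.96 ± 0.12, limma adjusted p = 0.0015), a chemokine shed from the endothelium, Hbegf (-0.76), a growth factor shed by Adam17, Tspan5 (-0.75), a tetraspanin partner of Adam10, and Notch3 (-0.54), a receptor of smooth muscle. Those that rose were L1cam (0.63) and Tspan33 (0.48).

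Of 20 measured matrix substrates, 0 rose and 5 fell in the F344 DA (0% and 25%, against 8.87% and 5.12% of all genes, median -0.17), among them Postn (-1.88 ± 0.12, limma adjusted p = 0.0003), which encodes periostin, and the collagen gene Col3a1 (-0.69 ± 0.13, adjusted p = 0.0094). In BN 1 rose and 2 fell (5% and 10%, against 0.986% and 0.82%). Col3a1 fell by 1.05 and Col1a2 by 0.67, and Acan, the aggrecan gene, rose by 1.70 ± 0.34 (adjusted p = 0.0424). Acan is also one of the cartilage markers. Their mean level was 7.243 and 7.297 (F344 DA), 7.089 and 7.183 (F344 aorta), 7.225 and 7.577 (BN DA) and 7.143 and 7.345 (BN aorta). The part of cartilage in the Acan difference was not tested. Vcan, which encodes versican, the main substrate of Adamts1 and Adamts9, rose by 0.38 ± 0.10 averaged over strains (limma adjusted p = 0.0304). It was not called higher in either strain alone. In the DA of BN against F344, Postn rose by 1.65 and Acan by 1.87.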

How the data were processed

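The labels describe 8 arrays in 4 groups of 2, hybridised with 150 ng of total RNA from pooled tissues. The deposited values are log2 expression values made by the authors with RMA per the submitters' processing notes. RMA as commonly defined includes background correction, quantile normalization and probe summary, but the settings used here are not recorded. Its version and the annotation build are not stated in the labels. The scale was taken from the range of the values, 1.07 to 14.15. Of 29215 probe sets, the platform annotation of 2016 gave 1 symbol for 15310, several for 323, and did not list 13582. The probe set with the highest mean was kept per gene, which left 14506 genes, and all 57 member genes matched RefSeq by Entrez identifier with the same symbol.

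One limma model (version 3.58.1, R 4.3.3) of 4 group means was fitted to all 8 arrays (4 residual and 5.25 prior degrees of freedom), with 7 contrasts and Benjamini-Hochberg adjustment over all genes. The script was checked on simulated data. Named with values are genes called in any contrast with a group mean above the median and the 5 genes with the smallest interaction p. All Timp genes, Mmp2, Mmp9, Mmp14, Adam17, Adamts1, Adamts4, Adamts5 and Adamts9 are also named. So are up to 4 called genes below the median in every group. Per pathway list and contrast, up to 4 called genes with the largest differences are named. Adam9, Adam11, Adam15, Adamts14, Adamts19, Mmp28 and Vcan were added after their values were seen. The members and lists were chosen with earlier results of these data known. Alternatives were other scalings, filters and moderation, and the omission of each array. The number of arrays limits the precision.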

Additional observations from a re-analysis of the deposited data

Results flagged for a closer look

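The DA and aorta arrays were apart in both strains but in opposite directions for 3 of the 57 genes, against 3.8% of all genes. For Mmp2 the F344 DA was above the aorta and the BN DA below it, and the BN difference minus the F344 difference was -0.88 on the log2 scale (limma adjusted p for the interaction = 0.28). Adam4 went the other way, lower in the F344 DA and higher in the BN DA, with an interaction of 0.61 (limma adjusted p = 0.391). Adam30, below the median in every group, had log2 levels of 5.81 and 5.85 (F344 DA), 5.45 and 5.61 (F344 aorta), 5.40 and 5.44 (BN DA) and 5.74 and 5.69 (BN aorta), and an interaction of -0.59 (limma adjusted p = 0.348). None of the 3 interactions passed the threshold.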

How the results depend on the processing

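The 13 genes called in F344 became 8 with repeated quantile normalization, 20 with only the 4 arrays compared, and 3 to 17 without single arrays. The 3 in BN became 6 with the replicate block, 0 with only the 4 arrays compared (limma, 10 at an unadjusted p under 0.05), and 0 to 6 without single arrays. The 5 between the strains in the DA became 3 with repeated quantile normalization, with cyclic loess or without chemosensory receptor genes, 10 with the replicate block, 0 with only the 4 arrays compared (limma, 15 unadjusted), and 0 to 7 without single arrays. The 14 averaged over strains became 22 with centring on brighter genes and 7 to 18 without single arrays, and the 3 averaged over tissues 0 to 9. With fewer arrays the residual degrees of freedom fall, and a lone array is assumed to vary like the other groups. Why the counts changed was not tested. The aorta strain comparison and the interaction stayed at 0 under all alternatives run. Same-numbered arrays correlated in their deviations by 0.0279 to 0.521, with 5 of 6 group pairs above 0.1 and 1 below it, and the erythroid markers were higher on replicate 1 in all 4 groups. The labels tie no number to a shared litter or day, so the main fit did not pair samples by number. Whether the numbers pair samples stays unknown. The replicate block gave 15 genes in F344, 17 averaged over strains and 4 averaged over tissues. Of 361 uncalled results of single genes, 144 changed sign and 48 gained a call under some alternative.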

Other observations

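The 2 arrays of BN DA differed most for Adamts19, with log2 levels of 6.04 and 7.19, for Adamts9 (10.50 and 9.73) and for Mmp28, an MMP known as epilysin (9.07 and 8.32).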
